A study of Drosophila melanogaster with 266 samples.

Results

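The genes described here are the subunit genes of the vacuolar ATPase of the adult Drosophila melanogaster head, taken as every protein-coding gene whose name begins with Vha. There are 33 of them among 13931 coding genes. They were chosen by name, with earlier results of these data known. The name stands for 13 genes of the cytosolic V1 sector, 18 of the membrane V0 sector and 2 accessory proteins. Positions come from the dm6 assembly with BDGP6.54 gene models, where 32 genes matched by identifier and Vha44 by symbol.

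The vacuolar ATPase is a rotary proton pump. Its V1 sector hydrolyses ATP outside the membrane and turns a central stalk, and the turning stalk drives a ring of proteolipids in the V0 sector that carries protons across the membrane. The pump acidifies lysosomes and endosomes in every cell, and in neurons it also acidifies synaptic vesicles, whose transporters use the proton gradient to load neurotransmitter. Several subunits are encoded by more than 1 fly gene, and the a subunit paralogs are known to place the pump on different membranes.

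RNA was profiled from nuclei of genetically marked cell types, isolated by INTACT (a single affinity capture of tagged nuclei) or TAPIN (capture in 2 steps). Protocol was not balanced over the classes. All glia and muscle libraries were TAPIN, and R1-6 was the only photoreceptor type with INTACT libraries. Of the 58 types of other neurons, 16 were profiled by INTACT only, 40 by TAPIN only and 2 by both. The cell types compared were 4 of photoreceptors (R1-6, R7, R8_Rh5 and R8_Rh6, 10 libraries), 3 of optic lobe glia (Glia_Eg, Glia_Mg and Glia_Psg, 12 libraries) and 2 of muscle (Muscles_App from the appendages and Muscles_Head from the head, 4 libraries), each set against 58 types of other neurons (141 libraries). Each cell type has 2 to 6 libraries, which carry a GAL4 or split-GAL4 driver and the nuclear tag UNC84-2XGFP under UAS control, inserted at attP2 in most lines. The muscle lines used the BL-1767 driver with the 5XUAS_UNC84_attP18 reporter, and R1-6 used ninaEfl-GAL4. A second comparison set 4 libraries of total RNA from dissected laminas against 4 of the rest of the optic lobe, with no reporter. The flies were adults a few days old and were not separated by sex. Nothing in the labels ties a library to a single animal, so the errors below measure the spread between libraries or between cell types.

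Some drivers reach further than their label. The muscle driver also marks some cells that are not muscle, the Glia_Eg drivers include marginal glia and ocellar photoreceptors, the R7 driver includes other photoreceptors, the Dm1 and Tm20 drivers include pigment cells, and the PAM_4 driver is thought to include some unidentified non-neuronal cells. Most markers were called higher in their own class. These were 9 of 9 photoreceptor markers, 4 of 6 glia markers (Gs2, moody, nrv2 and repo) and 8 of 8 muscle markers. Calls also crossed classes: of the glia list, Eaat1, Gs2 and moody were higher in muscle and repo in photoreceptors. Of the muscle list, sls and wupA were higher in glia. The fat body marker Yp3 was higher in photoreceptors and the hemocyte marker srp in muscle. The summed glia markers reached 2462 and 2768 TPM in the 2 muscle types, 4597 TPM in PAM_4, 1257 TPM in Tm20 and 1245 TPM in Dm1, against a median of 137 TPM over the 58 neuron types. Summed muscle markers were at 5087 TPM in Muscles_App, 2054 TPM in Muscles_Head and 5095 TPM in the neuron type LC10b. Summed fat body markers reached 13996 TPM in Muscles_Head, against a neuron median of 1066 TPM. Values are TPM, the relative abundance of a gene's transcripts among those of all coding genes, scaled for transcript length. This scaling did not remove a link between protocol and transcript length, given below. Levels of different genes, and the shares of paralogs built from them, are therefore only roughly comparable. The files give no read totals, and the depth behind a TPM value is therefore unknown.

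A core of the pump was present throughout the eye and brain. Of the 33 genes, 26 reached 10 TPM in at least 1 of the 67 cell types, 11 reached it in all 67, and 7 never did. The summed TPM of all 33 genes was 3651 (R7) to 4288 (R8_Rh6) in photoreceptors, 4570 (Glia_Eg) to 7812 (Glia_Mg) in glia, 4035 (Muscles_Head) and 5017 (Muscles_App) in muscle, and 3025 (KC_ab_s) to 7924 (C3) with a median of 4818 in other neurons. All 9 types lay inside the range of the other neurons. The sums are relative to all coding transcripts of a library. In these pools of nuclei, a smaller share of cells that express a gene and less of its RNA per cell cannot be told apart.

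The classes were compared with limma on log2(TPM + 1), with 1 value per cell type, over the 10411 genes that reached 10 TPM in at least 2 types. The filter left 24 of the 33 genes. In photoreceptors 5 of these 24 (20.8%) passed an adjusted p of 0.05 by the Benjamini-Hochberg method, 3 higher and 2 lower, against 28.9% of all genes (10.4% higher and 18.6% lower). In glia 7 (29.2%) passed, 3 higher and 4 lower, against 25.0% of all genes (12.4% higher and 12.5% lower), and in muscle 7 (29.2%) passed, 3 higher and 4 lower, against 23.2% (15.1% higher and 8.16% lower). These shares are near the background, so the counts are no result about the pump genes as a group, and the account below turns on which subunits moved and by how much. The median log2 difference of all tested genes was -0.38 for photoreceptors, -0.15 for glia and -0.04 for muscle, and that of the 24 genes was -0.35, -0.15 and -0.51 in the same order of classes. Of all calls, 35.8% were higher in photoreceptors and 50.6% were after quantile normalization. The same share was 64.9% in muscle and 49.6% after quantile normalization. No log2 difference of a called Vha gene changed sign under any alternative tried.

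**Figure D1:**
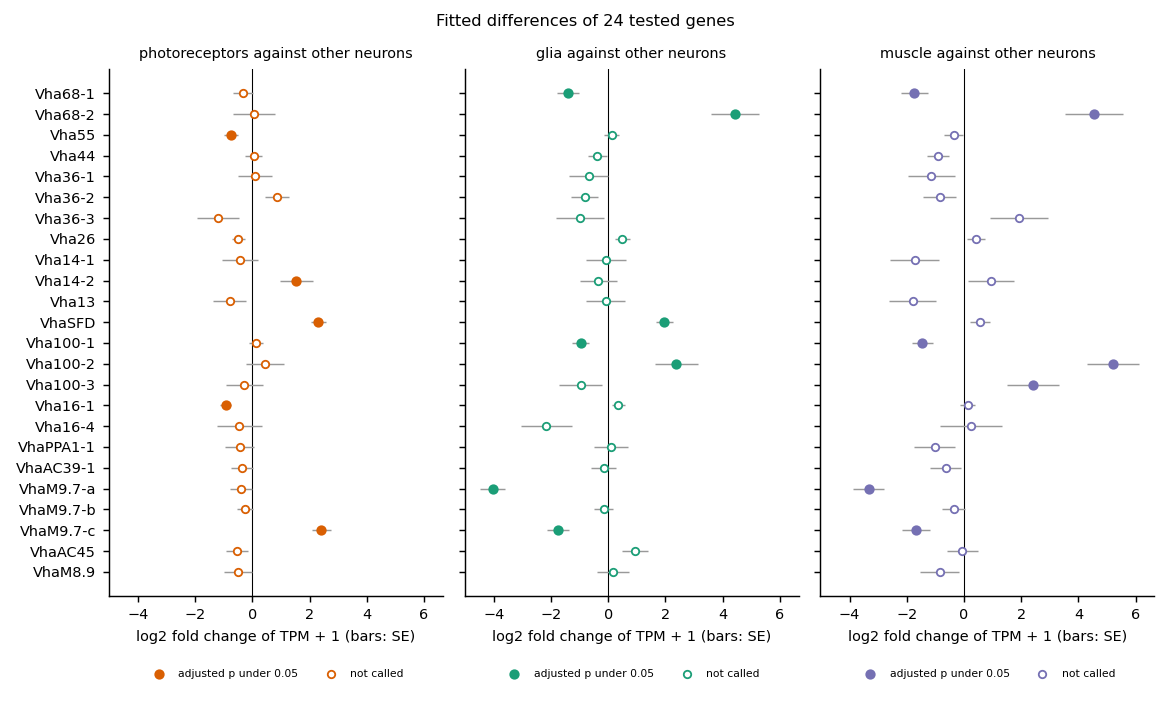
Fitted log2 difference on the log2(TPM + 1) scale for the 24 tested Vha genes in photoreceptors, glia and muscle, each against 58 types of other neurons. Bars are standard errors and filled points have a limma adjusted p under 0.05, which applies to 5 genes in photoreceptors, 7 in glia and 7 in muscle.

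The A subunit carries the catalytic sites of V1, and its genes showed an exchange of paralogs between classes. Vha68-2 (2L, 12974322 to 12978607) was higher in glia and in muscle than in other neurons. In glia its libraries averaged 119.9 ± 18.8 TPM in Glia_Eg (SD, n = 6), 369.0 ± 67.4 TPM in Glia_Mg (n = 2) and 263.0 ± 45.1 TPM in Glia_Psg (n = 4). In muscle they averaged 299 ± 15.8 TPM in Muscles_App and 195.6 ± 15.7 TPM in Muscles_Head (SD, n = 2 each). The 58 other neuron types ran between 0.94 TPM in Dm10 and 214.7 TPM in PAM_4, with a median of 8.79 TPM, and the next highest after PAM_4 was PAM_1 with 86.9 TPM. All 5 glia and muscle types therefore lay above every neuron type except PAM_4. Among the 16 control libraries, however, Vha68-2 reached 607.5 TPM, above every glia and muscle type. The limma difference was 4.44 (SE 0.84, adjusted p = 1.8e-05) for glia and 4.55 (SE 1.02, adjusted p = 3.2e-04) for muscle. It stayed past the threshold in both classes under every alternative, including the fit without PAM_4, Tm20 and Dm1. Over the 58 neuron types, which share purification protocols, the correlation of Vha68-2 with the summed glia markers was r = 0.72, with the summed fat body markers it was also 0.72, and with those of photoreceptors, muscle, hemocytes and pigment cells it was 0.59 to 0.64. The part of these cells in the neuron values was not tested.

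Vha68-1 (2L, 13000770 to 13004107), the other main A subunit gene, lies nearby on the opposite strand and moved the opposite way. Its levels were 74.7 ± 7.5, 53.7 ± 2.1 and 51.1 ± 18.4 TPM in Glia_Eg, Glia_Mg and Glia_Psg and 45.1 ± 3.0 and 48.2 ± 19.6 TPM in Muscles_App and Muscles_Head, against a median of 161.5 TPM in other neurons, from 37.6 TPM in PAM_4 to 362.6 TPM in C3. The glia and muscle values sit at the low end of the neuron range and overlap it. Vha68-1 was lower by a log2 difference of -1.40 in glia (SE 0.39, adjusted p = 0.0041) and -1.74 in muscle (SE 0.48, adjusted p = 0.0034). The call in glia was lost without Glia_Psg (adjusted p = 0.051) and the call in muscle without either muscle type (adjusted p = 0.096 without Muscles_App and 0.065 without Muscles_Head). Vha68-2 made up a median of 83.7% of the summed A subunit TPM in glia and 82.6% in muscle, against 5.03% in other neurons. It led the subunit in 6 of the 67 types: the 3 glia types, the 2 muscle types and PAM_4, where it made up 85.0%. Photoreceptors resembled the other neurons, with 88.2% from Vha68-1 and 10.7% from Vha68-2. The third A subunit gene, Vha68-3, reached 10 TPM only in LPLC2, with 11.7 and 18.0 TPM in its 2 libraries.

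**Figure D2:**
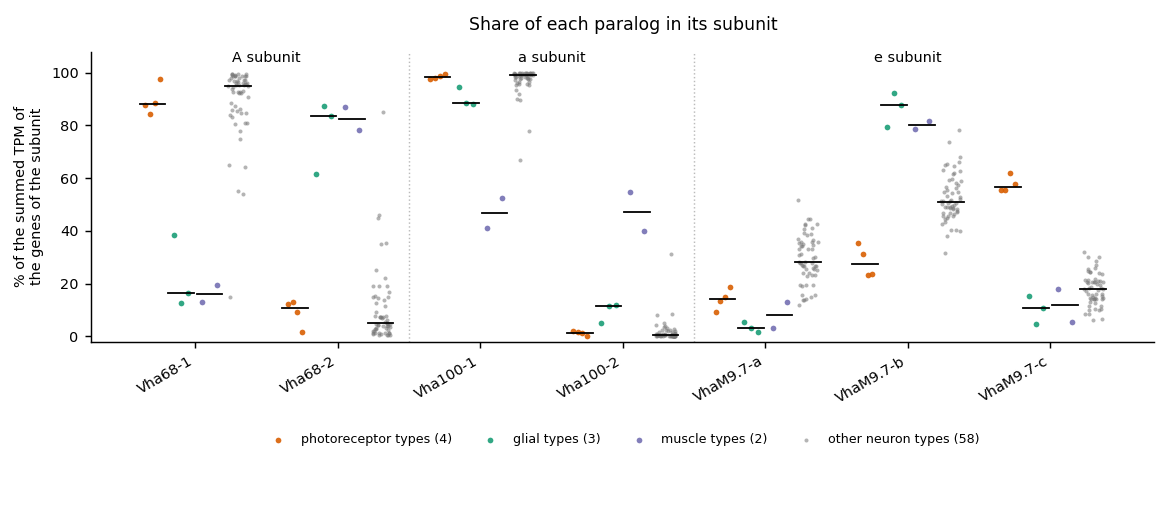
Share, in percent, of the summed TPM of the genes of a subunit taken by each paralog, for the A, a and e subunits, with 1 point per cell type and a line at the median of each class. Vha68-2 takes a median of 83.7% of the A subunit in glia and 82.6% in muscle, Vha100-2 47.3% of the a subunit in muscle, and VhaM9.7-c 56.7% of the e subunit in photoreceptors.

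The B subunit, which alternates with A in the catalytic ring, is encoded by Vha55 alone. Vha55 was lower in photoreceptors, with 262.0 ± 36.6 TPM in R1-6 (SD, n = 4), 206.9 ± 79.6 TPM in R7, 343.1 ± 33.2 TPM in R8_Rh5 and 336.5 ± 48.1 TPM in R8_Rh6 (n = 2 each), against a median of 499.4 TPM in other neurons, from 195.3 TPM in PB_3 to 752.4 TPM in TmY5a. The photoreceptor types all lie below the neuron median but inside the neuron range. The log2 difference was -0.75 (SE 0.23, adjusted p = 0.010), and it lost the call without R7 (-0.59, adjusted p = 0.11). Glia had 395.1 to 765.5 TPM and muscle 295.1 and 449.6 TPM of Vha55, with no call.

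The stalk subunits tie the catalytic ring to the membrane. Vha44 (subunit C), Vha26 (subunit E), Vha13 (subunit G) and Vha36-1 (a D subunit gene) passed the test in none of the 3 classes. Vha44 was at 460.7 to 605.9 TPM in photoreceptors, 322.3 to 450.2 TPM in glia and 262.0 and 280.9 TPM in muscle, against a neuron median of 534.9 TPM with LPLC1 highest at 1187 TPM. Vha26 was at 291.5 to 352.4 TPM in photoreceptors, 483.8 to 950.3 TPM in glia and 500.02 and 785.0 TPM in muscle, against a neuron median of 459.0 TPM. Vha13 was at 30.0 to 75.4 TPM in photoreceptors, 65.3 to 90.4 TPM in glia and 23.3 and 36.5 TPM in muscle, against a neuron median of 81.3 TPM. Vha36-1 was at 28.0 to 56.2 TPM in photoreceptors, 18.8 to 29.2 TPM in glia and 13.6 and 18.1 TPM in muscle, against a neuron median of 37.5 TPM and up to 154.1 TPM in C3. Muscle was thus below the neuron median for Vha44, Vha13 and Vha36-1, by amounts that did not pass the test. Vha36-1 led the D subunit in 63 of the 67 types.

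Each of the D and F stalk subunits also has a gene with patchy signal. Vha36-2, a D subunit gene, was at 13.0 and 13.4 TPM in the 2 R8_Rh6 libraries. Its T4 libraries were at 55.1, 36.5, 1.0 and 1.4 TPM and its PB_4 libraries at 40.9, 94.3, 0.0 and 0.0 TPM, and in both types the high libraries came from the first driver and the low ones from the second. Vha36-3 was at 44.8, 32.8, 41.2 and 49.1 TPM in L1, the highest type, and at a mean of 16.3 TPM in Muscles_App and 14.9 TPM in Muscles_Head, where it made up 47.4% and 52.0% of the D subunit. Of the F subunit genes, Vha14-1 was the main one at a neuron median of 35.9 TPM, and Vha14-2 (3R, 6122592 to 6124405) was high in the 2 libraries of R7, with 102.7 and 242.3 TPM. The sub-optimal libraries of a second R7 driver, R7_Rh3, were at 10.9 and 3.51 TPM, so that the high level was seen with 1 of the 2 drivers. R1-6 had 0.41 TPM, R8_Rh5 0.525 TPM and R8_Rh6 5.20 TPM of Vha14-2, and the other neuron types had at most 15.1 TPM (PB_3). Vha14-2 made up 93.2% of the F subunit in R7. It passed the photoreceptor test (1.53, SE 0.57, adjusted p = 0.036), but the log2 difference was 0.005 without R7 (adjusted p = 0.999). The call was also lost without R8_Rh6 (adjusted p = 0.079), with a pseudocount of 0.25 TPM (0.095) and with libraries as units (0.091, or 0.097 with a replicate block). The highest of the 16 control libraries was at 2.54 TPM of Vha14-2.

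VhaSFD encodes subunit H, which couples V1 to V0 and inhibits the ATPase of free V1 in yeast. It was higher in photoreceptors and in glia than in other neurons. The R1-6 libraries were at 731.7 and 704.5 TPM by TAPIN and 368.7 and 336.7 TPM by INTACT, the R7 libraries at 421.4 and 432.7 TPM, R8_Rh5 at 500.6 and 411.9 TPM and R8_Rh6 at 351.7 and 417.2 TPM. The 6 Glia_Eg libraries ran from 576.6 to 751.9 TPM, the 2 of Glia_Mg were at 303.9 and 302.1 TPM, and the 4 of Glia_Psg ran from 165.6 to 285.4 TPM. Other neurons were at 38.9 TPM (KC_ab_c) to 214.5 TPM (L1), with a median of 90.4 TPM. No photoreceptor or glia type mean overlapped the other neurons, although Glia_Psg at 220.3 TPM was only just above L1. The log2 difference was 2.30 in photoreceptors (SE 0.26, adjusted p = 2.6e-11) and 1.96 in glia (SE 0.30, adjusted p = 1.4e-07), and both held under every alternative. Muscle was at 117.4 and 147.7 TPM, inside the neuron range and not called. The authors' mixture model called VhaSFD on, at a probability of at least 0.8, in 8 types: the 4 photoreceptors, the 3 glia and L1. Background was uneven: bead captures from flies with no driver gave 101.9 and 348.6 TPM by TAPIN, while the Tm1 capture gave 126.3 to 126.6 TPM and its input 98.4 to 105.0 TPM.

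**Figure D3:**
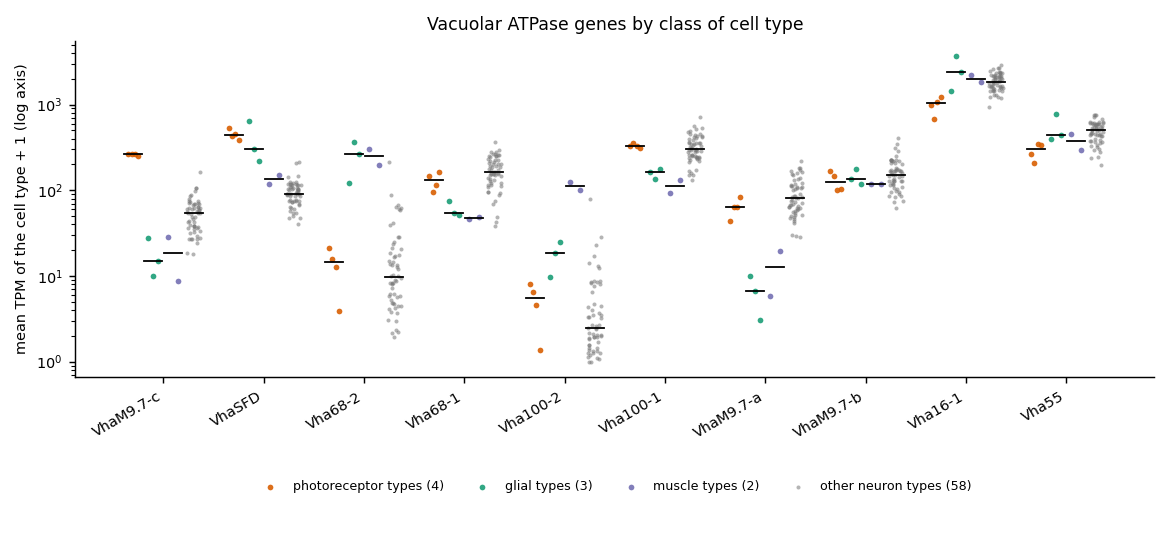
Mean TPM + 1 per cell type on a log axis for 10 Vha genes in photoreceptors (4 types), glia (3), muscle (2) and other neurons (58), with a black line at the class median. VhaM9.7-c sits highest in photoreceptors, VhaSFD in photoreceptors and glia, Vha68-2 in glia and muscle and Vha100-2 in muscle, while VhaM9.7-a is low in glia and muscle.

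In the membrane sector, the a subunit lines the path of the protons and anchors the peripheral stalks. Vha100-1 is the paralog known from neurons, where it is needed at synapses. Its levels were 310.7 to 352.6 TPM in the 4 photoreceptor types, against a neuron median of 299.5 TPM, from 130.2 TPM in KC_ab_c to 707.0 TPM in L5. It was lower in glia, at 162.8 ± 19.0, 133.9 ± 24.3 and 173.9 ± 36.1 TPM in Glia_Eg, Glia_Mg and Glia_Psg, and lower in muscle, at 92.7 ± 12.3 TPM in Muscles_App and 130.5 ± 22.3 TPM in Muscles_Head. Only Muscles_App was below every neuron type. The log2 difference was -0.96 in glia (SE 0.30, adjusted p = 0.010) and -1.46 in muscle (SE 0.36, adjusted p = 0.0011), with the glia call lost without Glia_Mg (adjusted p = 0.097) or with sub-optimal libraries added (adjusted p = 0.064), and the muscle call lost without Muscles_App (adjusted p = 0.13).

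Vha100-2 (3R, 18390323 to 18399169) was higher in muscle than in other neurons. Its libraries were at 118.8 and 129.5 TPM in Muscles_App and 73.9 and 124.7 TPM in Muscles_Head, against a median of 1.45 TPM in other neurons. The neuron type PAM_4 reached 37.5 and 116.7 TPM, and the next were Dm1 at 27.4 TPM, Tm20 at 21.8 TPM and LC10b at 16.0 TPM. Both muscle means lay above every neuron type, PAM_4 included. Among the 16 control libraries, however, Vha100-2 reached 127.6 TPM, above both muscle means. The difference in muscle was 5.21 (SE 0.91, adjusted p = 5.2e-06) and held under every alternative. In glia Vha100-2 was at 8.78 ± 4.4, 17.6 ± 3.5 and 23.6 ± 9.7 TPM in Glia_Eg, Glia_Mg and Glia_Psg, inside the neuron range, and the difference of 2.39 (SE 0.75, adjusted p = 0.012) lost its call without Glia_Mg (adjusted p = 0.080) or Glia_Psg (adjusted p = 0.11). Vha100-2 made up a median of 47.3% of the a subunit in muscle and 11.6% in glia, against 0.45% in other neurons, and exceeded Vha100-1 in Muscles_App alone, at 54.8%. Over the 58 neuron types Vha100-2 correlated with the summed glia markers at r = 0.76, and at 0.59 to 0.71 with those of pigment cells, hemocytes, fat body, muscle and photoreceptors.

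Vha100-3 (2R, 18908961 to 18911895, minus strand) was high in L1 and L2, a pair of lamina monopolar neurons. Its libraries were at 176.9, 146.7, 195.2 and 110.0 TPM in L1 and 42.0 and 44.8 TPM in L2, and the next neuron type was LC10b at 7.53 TPM. The other lamina monopolar types L3, L4 and L5 were at 4.35, 2.16 and 1.42 TPM. The muscle libraries were at 12.0 and 4.7 TPM in Muscles_App and 12.5 and 17.7 TPM in Muscles_Head, while glia and photoreceptors stayed at or below 1.67 TPM. The mixture model called it on in L1 and L2 only. Its muscle call (2.42, SE 0.92, adjusted p = 0.044) was lost under 6 of the alternatives. This single-exon gene lies inside sano on the opposite strand. The 2 genes moved together, with sano at 1419 TPM in L1, 549 TPM in L2, 1442 TPM in Muscles_Head and 800.2 TPM in Muscles_App and r = 0.86 over the 67 types, which share the counting. The exons of the 2 genes do not overlap. No strand setting is given for the counting, and the share of intronic sano reads in the Vha100-3 values was not tested. Of the remaining a subunit genes, Vha100-4 reached at most 4.41 TPM (Muscles_Head) and Vha100-5 at most 0.81 TPM.

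**Figure D4:**
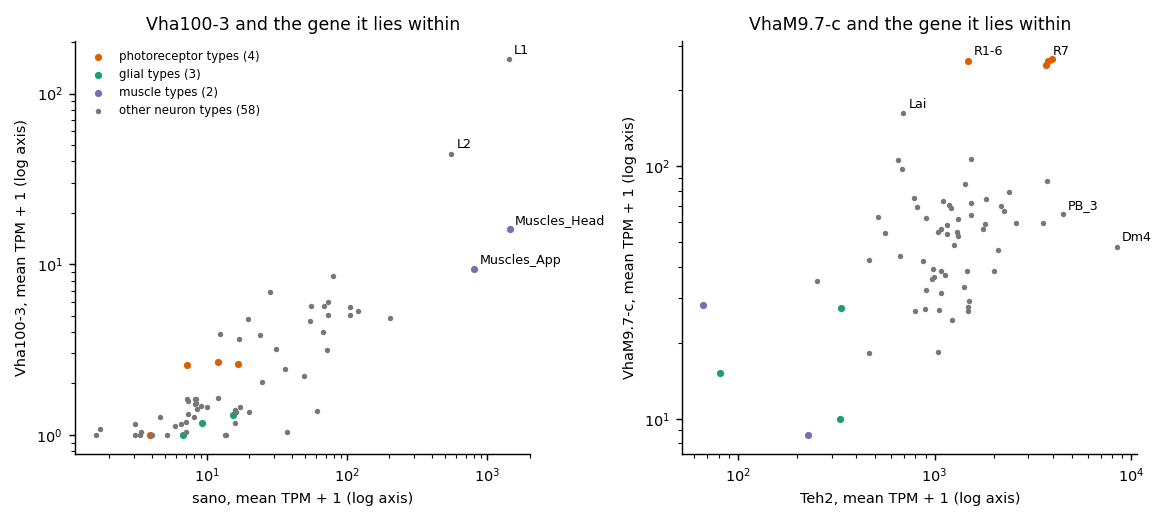
Mean TPM + 1 of 2 Vha genes against that of the gene each lies within, Vha100-3 against sano and VhaM9.7-c against Teh2, over 67 cell types on log axes. Vha100-3 is highest in L1, where sano is at 1419 TPM, while the type highest in Teh2, Dm4, has 47.1 TPM of VhaM9.7-c against over 250 TPM in the photoreceptors.

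The proteolipid c subunit forms the rotating ring, with several copies per pump. Vha16-1 (2R, 6625242 to 6633090) was the most abundant gene of the family and led the c subunit in all 67 types, with no less than 96.5% of its TPM. Photoreceptors had less of it than most neurons. R1-6 libraries were at 1215.6 and 1333.1 TPM by INTACT and 789.6 and 656.5 TPM by TAPIN, and the means of R7, R8_Rh5 and R8_Rh6 were 670.6 ± 107.5, 1078.2 ± 82.5 and 1224.5 ± 135.7 TPM (SD, n = 2 each). Other neurons ran from 944.0 TPM in LC4 to 2862 TPM in Mi1, with a median of 1853 TPM, and only 3 neuron types were at or below the highest photoreceptor type. The log2 difference was -0.93 (SE 0.19, adjusted p = 1.3e-04), beyond the shift of -0.38 over all genes, and was called under every alternative. Vha16-1 reached 3679.4 TPM in Glia_Mg, above all neuron types, but glia and muscle passed no test. The other proteolipid genes were low: Vha16-4 reached 57.6 and 77.2 TPM in the 2 Lai libraries, and Vha16-2, Vha16-3 and Vha16-5 stayed below 10 TPM in every type.

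VhaPPA1-1 encodes the c'' proteolipid and VhaAC39-1 the d subunit at the foot of the central stalk. Neither passed a test in the 3 classes. VhaPPA1-1 was at 48.3 to 135.3 TPM in photoreceptors, 117.1 to 174.7 TPM in glia and 48.7 and 102.9 TPM in muscle, against a neuron median of 140.2 TPM, and made up at least 91.9% of its subunit in every type. VhaAC39-1 was at 87.7 to 127.7 TPM in photoreceptors, 84.8 to 196.9 TPM in glia and 73.1 and 115.0 TPM in muscle, against a neuron median of 139.7 TPM. Their paralogs were scarce: VhaPPA1-2 reached at most 4.31 TPM, and VhaAC39-2 reached 10 TPM as a mean in LC6 alone, where the 2 libraries of the first driver were at 0.0 TPM and those of the second at 36.8 and 16.3 TPM.

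The small e subunit of V0 has 3 abundant genes, and their patterns differed between the classes. VhaM9.7-c (3L, 4186018 to 4186865) was highest in photoreceptors, with R1-6 libraries at 310.2 and 344.2 TPM by TAPIN and 200.5 and 191.4 TPM by INTACT, R7 at 236.7 and 285.5 TPM, R8_Rh5 at 251.7 and 276.5 TPM and R8_Rh6 at 288.6 and 214.6 TPM. Other neurons ran from 17.3 TPM in PAM_4 to 161.1 TPM in Lai, with a median of 53.7 TPM. Every photoreceptor library lay above every neuron type. The log2 difference was 2.41 (SE 0.34, adjusted p = 4.0e-08) and was called under every alternative. VhaM9.7-c was at 26.4, 9.0 and 14.1 TPM in Glia_Eg, Glia_Mg and Glia_Psg and at 27.3 and 7.6 TPM in Muscles_App and Muscles_Head. It was lower in glia (-1.75, SE 0.39, adjusted p = 3.0e-04) and in muscle (-1.67, SE 0.48, adjusted p = 0.0053), and the muscle call was lost without Muscles_Head (-0.82, adjusted p = 0.54). Both calls were also lost when libraries marked as sub-optimal were added. INTACT bead captures with no driver held 220.7 and 303.2 TPM of VhaM9.7-c, as much as the photoreceptors, while the Tm1 capture held 60.3 to 62.9 TPM and its input 18.4 to 19.4 TPM.

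VhaM9.7-c has a single exon inside Teh2, on the same strand. Teh2 was at 1476 to 3942 TPM in the 4 photoreceptor types and highest in Dm4 at 8434 TPM, where VhaM9.7-c was at 47.1 ± 16.9 TPM. Over the 67 types the 2 correlated at r = 0.53. The share of intronic Teh2 reads in the VhaM9.7-c values was not tested.

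VhaM9.7-a (3L, 4262705 to 4263464) was lower in glia and in muscle, as VhaM9.7-c was, but was not called in photoreceptors. It was at 43.2 to 81.4 TPM in photoreceptors and at 27.8 TPM (T5) to 216.3 TPM (L3) in other neurons, with a median of 80.9 TPM. The 6 Glia_Eg libraries ran from 1.2 to 19.7 TPM, the 2 of Glia_Mg were at 8.9 and 2.3 TPM and the 4 of Glia_Psg ran from 0.0 to 3.4 TPM. The muscle libraries were at 9.8 and 0.0 TPM in Muscles_App and 23.0 and 13.7 TPM in Muscles_Head. No glia or muscle type overlapped the other neurons. VhaM9.7-a was lower by -4.04 in glia (SE 0.45, adjusted p = 1.4e-11), which held under every alternative, and by -3.33 in muscle (SE 0.54, adjusted p = 1.1e-06), which lost its call without Muscles_App (adjusted p = 0.056). The mixture model called it on in 63 of the 67 types and off in the other 4, the 3 glia and Muscles_App.

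VhaM9.7-b (3L, 21539862 to 21541215), the third abundant e subunit gene, was at 99.6 to 166.0 TPM in photoreceptors, 116.4 to 173.6 TPM in glia and 117.0 and 118.6 TPM in muscle, against a neuron median of 151.3 TPM, and was called in none of the 3 classes. The median shares of the e subunit were thus 56.7% VhaM9.7-c, 27.3% VhaM9.7-b and 14.1% VhaM9.7-a in photoreceptors. In glia VhaM9.7-b made up 87.8% and in muscle 80.3%. Other neurons had 17.9% VhaM9.7-c, 50.9% VhaM9.7-b and 28.2% VhaM9.7-a. VhaM9.7-c led the subunit in the 4 photoreceptor types and in no other, with Mi9 the neuron nearest to them at 31.9%.

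The 2 accessory proteins passed no test in the 3 classes. VhaAC45, which helps to assemble and guide the pump, was at 74.7 to 98.7 TPM in photoreceptors, 198.7 to 303.6 TPM in glia and 101.4 and 137.9 TPM in muscle, against a neuron median of 131.4 TPM. VhaM8.9, the fly ATP6AP2 (prorenin receptor), was at 40.1 to 56.5 TPM in photoreceptors, 60.4 to 104.4 TPM in glia and 31.0 and 42.7 TPM in muscle, against a neuron median of 63.3 TPM.

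The leading genes of the subunits varied together across cell types. Over 15 such genes, the median pairwise correlation was r = 0.44 across the 67 types, between -0.37 and 0.93 over 105 pairs, against a median of 0.108 over pairs of all tested genes. Vha44 (median r of -0.06) and VhaSFD (0.07) followed the others least. The types share purification protocols and the TPM scaling. The 15 genes were picked as leading ones, and the pairs of all genes were not matched to them in abundance. Within the 16 neuron types profiled by INTACT the median was r = 0.48, against 0.042 over pairs of all genes. Within the 40 profiled by TAPIN it was 0.40, against 0.11. Protocol was visible in the levels: of the 17 genes at 10 TPM or more in the median neuron type of each protocol, 16 had a higher median in the 16 neuron types profiled by INTACT than in the 40 profiled by TAPIN, 7 of them by at least 2-fold. Vha13 was at 206.1 TPM by INTACT and 52.6 TPM by TAPIN, Vha36-1 at 109.8 and 23.7 TPM and Vha14-1 at 98.5 and 28.0 TPM, while Vha44 went the other way at 388.1 and 624.5 TPM. Vha68-2, below that level by INTACT, also went the other way, at 7.08 TPM by INTACT and 10.1 TPM by TAPIN. The log2 ratio of the 2 medians fell with transcript length (r = -0.71 across the 17 genes). The genes called lower in both glia and muscle had higher INTACT than TAPIN medians: VhaM9.7-a at 152.8 and 64.9 TPM, Vha68-1 at 249.3 and 148.1 TPM. Vha100-1 was at 388.0 and 266.5 TPM and VhaM9.7-c at 66.5 and 47.6 TPM. Glia and muscle libraries were all TAPIN, so neuron medians over both protocols, and differences from them, mix protocol with class. All calls described as holding under every alternative also held with TAPIN libraries alone.

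Transcript use within a gene also differed by class, given here as shares of the gene's TPM with no test. For Vha100-1, FBtr0085377 made up a median of 50.2% in glia and 48.8% in muscle but 1.28% in photoreceptors, against 2.05% in other neurons. Another of its transcripts, FBtr0301651, made up 6.48% in glia, 7.43% in muscle and 41.1% in photoreceptors, against 46.8% in other neurons. The share of FBtr0085377 ran from 0 to 64.1% among the other neuron types, which therefore overlap glia and muscle. A further Vha100-1 transcript, FBtr0085374, set photoreceptors apart from the medians of the other classes, at 12.3% in photoreceptors, 2.69% in glia and 0.013% in muscle, against 0.38% in other neurons, where it ran up to 15.6%. For Vha16-1, FBtr0086151 made up 31.6% in photoreceptors, 82.9% in glia and 76.3% in muscle, against 62.5% in other neurons. For Vha55, FBtr0082670 made up 59.9% in photoreceptors, 19.2% in glia and 29.6% in muscle, against 34.4% in other neurons.

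Dissected tissue gave a view without nuclear capture. Among 7470 genes tested with limma in 4 lamina libraries and 4 libraries of the rest of the optic lobe, 18 Vha genes were included and 13 (72.2%) were called, 1 higher and 12 lower, against 59.6% of all genes (14.2% higher and 45.4% lower). With a median log2 difference of -0.47 over all genes and -0.49 over the 18, the Vha genes were shifted by about as much as the whole table. Of all calls, 23.8% were higher in lamina and 41.9% were after quantile normalization. Vha68-2 was the exception, at 176.8, 147.0, 190.1 and 159.8 TPM in lamina, against 42.2, 43.8, 52.7 and 43.2 TPM in the rest of the optic lobe, a log2 difference of 1.86 (SE 0.12, adjusted p = 3.8e-06). Its partner Vha68-1 was at 264.8, 296.0, 162.4 and 264.4 TPM in lamina, against 442.3, 456.6, 427.5 and 427.0 TPM in the rest (-0.86, SE 0.17, adjusted p = 0.0025). The 2 sets of libraries did not overlap for either gene. Of the Vha genes left out by the filter, the highest in lamina were Vha100-3, at a mean of 8.79 TPM against 0.68 TPM in the rest, Vha100-2, at 7.13 against 2.23 TPM, and Vha36-3, at 5.10 against 2.31 TPM. VhaM9.7-a was at 150.4 to 174.9 TPM in lamina, against 288.6 to 370.8 TPM in the rest (-1.02, SE 0.10, adjusted p = 5.9e-05), and Vha36-1 averaged 154.2 ± 29.8 TPM in lamina, against 305.2 ± 48.0 TPM (-0.99, SE 0.17, adjusted p = 9.8e-04). The summed glia markers were at 4642 to 5698 TPM in lamina, against 4065 to 4585 TPM in the rest, although 3 of the 6 were called higher and 2 (alrm and Eaat1) lower. The summed photoreceptor markers were at 519 to 1142 TPM in lamina, against 339 to 428 TPM in the rest, the pigment cell markers at 88.5 to 234 TPM, against 9.94 to 17.6 TPM, and the fat body markers at 746 to 3441 TPM, against 419 to 818 TPM. Their part in these differences was not tested. Of the 3 genes called higher in photoreceptors, Vha14-2 was not tested here, VhaSFD was not called and VhaM9.7-c was lower (-0.58, SE 0.17, adjusted p = 0.017), a call lost under quantile normalization (adjusted p = 0.30). The 4 photoreceptor types held 22291.5 to 39975.2 TPM of the summed photoreceptor markers in nuclear RNA, far above the total RNA of lamina. The lamina comparison is therefore no test of those 3 calls.

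**Figure D5:**
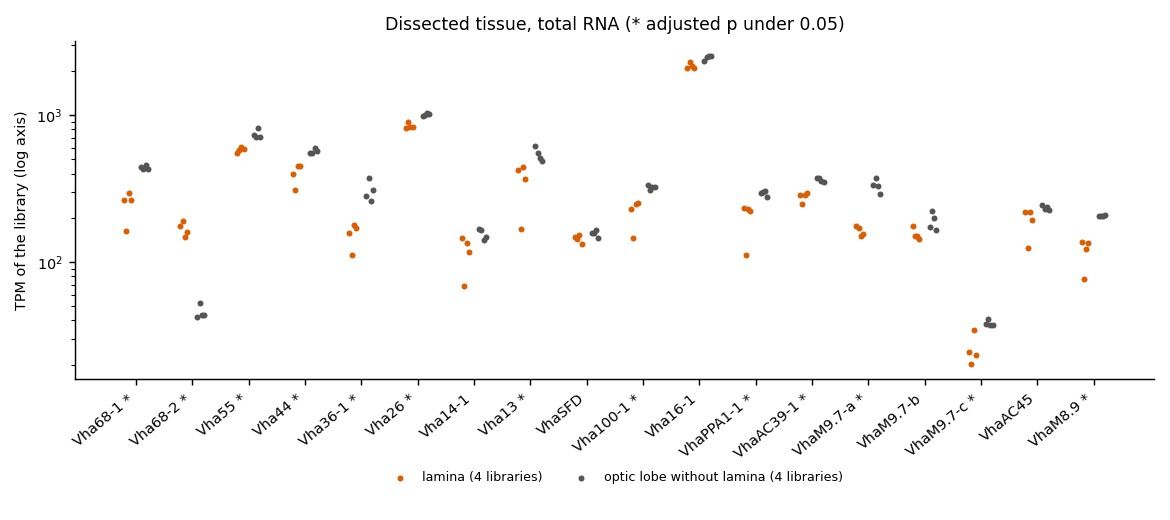
TPM per library on a log axis for the 18 tested Vha genes, with 4 lamina libraries left of 4 libraries of the optic lobe without lamina, and an asterisk where the limma adjusted p is under 0.05. Vha68-2 is the gene higher in lamina, at 147.0 to 190.1 TPM against 42.2 to 52.7 TPM, and 12 genes are lower.

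Other genes of pump assembly, synaptic vesicles and lysosomes were read from 3 lists, chosen with earlier results of these data known. Among all tested genes, 10.4% were called higher and 18.6% lower in photoreceptors. The shares were 12.4% and 12.5% in glia, and 15.1% and 8.16% in muscle. Of 7 tested genes of pump assembly and regulation, 1 was lower in photoreceptors (CG5969, at -1.90). In glia 1 was higher and 2 were lower, and in muscle 1 was higher and 1 was lower. Mitf, a transcription factor that drives pump and lysosome genes, was the higher one in both, at 1.32 in glia and 1.41 in muscle. CG31030, a relative of VhaAC45, was the lowest in both, at -4.57 in glia and -4.69 in muscle, and mtd was lower in glia at -2.50. The list median was -0.55 in photoreceptors, -0.33 in glia and -0.61 in muscle. Of 10 tested synaptic vesicle genes, 7 were lower and 0 higher in both glia and muscle, and in photoreceptors 1 was higher (Syn) and 2 were lower (Syngr and VGAT). Of 8 tested lysosome genes, 3 were higher and 0 lower in glia (Cp1, Npc2a and spin), 1 was higher and 0 lower in muscle (spin), and in photoreceptors 2 were higher (Cp1 and Npc2a) and 1 was lower (Lamp1). In the lamina comparison 0 of the 7 assembly genes were higher and 4 were lower, CG31030, CG5969, mtd and Rbcn-3A. Of the 10 synaptic vesicle genes 3 were higher and 4 lower there, and of the 8 lysosome genes 3 were higher and 1 lower. Among all genes tested in that comparison, 14.2% were higher and 45.4% lower.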

How the data were processed

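RNA of 266 libraries (nuclear, or total RNA for dissected tissue) was amplified with the NuGen Ovation kit and sequenced as short reads. The authors quantified transcripts with kallisto 0.43.1 against Ensembl and FlyBase transcripts, removed ribosomal, spike-in and tag sequences and rescaled the remaining coding genes to a fixed total. The deposited values used here are transcript and gene TPM per library and mean TPM per cell type, and the fraction-scale probability, deposited by the authors, that a gene is on in a cell type. No deposited file used here gives read counts, and strand handling is not given in the sources used here.

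Levels per cell type were recomputed as means ± SD over libraries (within 0.0075 TPM of the deposited means). No 2 libraries were identical. Classes were compared with limma 3.58.1 (R 4.3.3; trended eBayes, two-sided, all 4 classes in 1 fit) on log2(TPM + 1), averaged per cell type, over genes with at least 10 TPM in 2 types, with Benjamini-Hochberg adjustment over all tested genes and a threshold of 0.05. Fold differences on this scale understate the change of low genes. Lamina was compared by library. The method was tested on simulated data. Genes were named if called without overlapping the other neurons, or if they were the most abundant paralog of a subunit. Others named were chosen after their values were seen. The members and lists were chosen with earlier results of these data known. Alternatives covered the pseudocount, filter, normalization, protocol, units, replicate block, doubtful drivers, sub-optimal libraries and each cell type or library left out. Of the 33 genes, 27 were in the authors' on and off model. No sequence is printed.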

Additional observations from a re-analysis of the deposited data

Results flagged for a closer look

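With 4 values in a group, a highest or lowest value can stand far from the others by chance in about 1 in 20 groups, and 5 of the 58 groups tested did. Vha14-2 was at 172.5 TPM in R7, with the next photoreceptor type at 5.20 TPM. Vha26 was at 291.5 TPM in R7, with the other photoreceptor types between 350.1 and 352.4 TPM. Among the lamina libraries, VhaPPA1-1 was at 111.9 TPM in the library d2, replicate 1, with the others between 221.2 and 234.0 TPM. In the optic lobe library of the same name (d2, replicate 1), Vha68-2 was at 52.7 TPM, with the others between 42.2 and 43.8 TPM, and VhaM9.7-c was at 40.8 TPM, with the others between 36.9 and 37.6 TPM.

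Libraries of mixed or broad cell groups and sub-optimal libraries lay outside the main comparisons. In these, the 9 Vha genes that the mixture model called on in 12 types or fewer were looked at in 324 gene and group pairs. Such a call does not mean absence elsewhere: VhaSFD reached 10 TPM in all 67 types and Vha68-2 in 34. A pair counted if every library reached 10 TPM and exceeded all 16 control libraries, and 1 pair did. The controls reached 607.5 TPM of Vha68-2, 348.6 TPM of VhaSFD and 127.6 TPM of Vha100-2, so the check said little about these genes. Vha100-3 averaged 91.9 TPM in the libraries of L1 and L2 together, between 75.0 and 112.3 TPM, against at most 26.5 TPM in 16 control libraries.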

How the results depend on the processing

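No called Vha gene changed direction. Refits of single called genes lost significance in 6 of 75 cases in photoreceptors, 6 of 98 in glia, 12 of 89 in muscle and 24 of 169 in lamina. In photoreceptors the lower count went to 4 against neurons of TAPIN optic lobe drivers alone, a setting chosen after seeing the data. In glia the lower count went to 2 with sub-optimal libraries. In muscle the higher count went to 5 with no filter and the lower count to 7 under quantile normalization. In lamina the higher count went to 3 with no filter. Leaving out each type in turn gave 2 to 3 higher and 1 to 2 lower in photoreceptors, 2 to 4 higher and 3 to 4 lower in glia, and 2 higher in both fits and 1 to 2 lower in muscle. Leaving out each library gave 1 higher and 9 to 13 lower in lamina. The cause was not tested.

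Whether the replicate numbers pair the libraries is not stated. Deviations of same-numbered lamina and optic lobe libraries from their tissue means correlated at 0.153, 0.0781, -0.00167 and 0.111, which cannot settle it. With libraries as units and a replicate block, the higher and lower counts were 2 and 2 in photoreceptors, 3 and 5 in glia and 3 and 5 in muscle, and with the block in lamina they were 1 and 11. Depth is unknown, so low TPM cannot be given a detection limit.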

Other observations

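Vha36-3 was highest in libraries that the authors marked as sub-optimal. It was at 148.0 and 117.0 TPM in the second muscle driver of the head and at 150.6 and 144.0 TPM in the Pdf neuron libraries, against 42.0 TPM in L1, the highest of the 67 types. Its neighbour Pdfr was at 35.3 and 37.2 TPM in that muscle driver and at 4450.4 and 3890.8 TPM in the Pdf libraries. Over the 67 types Pdfr and Vha36-3 correlated at r = 0.66. The same second muscle driver had 110.0 and 157.4 TPM of Vha100-2 and 359.4 and 293.7 TPM of VhaSFD, where the muscle libraries compared above had 73.9 to 129.5 TPM and 110.8 to 162.9 TPM.

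Mock captures and captures with no driver gave widely scattered values for Vha68-2, between 4.7 and 607.5 TPM, while the Tm1 capture gave 20.2 and 35.8 TPM and its input 164.9 and 177.2 TPM. Vha100-1 was higher in the Tm1 capture, at 460.6 and 477.4 TPM, than in the input, at 125.2 and 129.0 TPM, and VhaM9.7-a was at 75.1 and 104.4 TPM in the capture and 109.7 and 112.1 TPM in the input.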
